A study of Mus musculus with 6 samples.

Results

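Interleukins and the tumour necrosis factor (TNF) superfamily, with their receptors, were followed in livers of DDC-treated mice, in groups that differed in butyrylcholinesterase (Bche) RNA. The genes were taken by symbol, as names that open with Il and a number, Tnf itself, and names that open with Tnfsf (TNF-type ligands) or Tnfrsf (their receptors). Of 22183 gene symbols, 100 matched, and 66 of these had at least 10 reads in at least 3 of the 6 libraries. Among the 66 were 41 interleukin names and 25 TNF names. By role they were 18 ligands, 6 soluble antagonists or decoy receptors, 41 receptor chains and 1 transcript that is neither. A total of 65 of the 66 entered the statistical test, which ran on 14681 genes.

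The samples were bulk mRNA-seq of liver from BucheKI/KI-Hep mice, all given DDC. One group carried the label S2W-DOX (3 libraries, called DOX here) and the other S2W-PBS (3 libraries, called PBS). Genotype, tissue and DDC are shared by both groups, so that DOX against PBS is the only comparison, and no untreated liver was analysed here. DDC, which the labels do not spell out, is in mouse liver work usually a porphyrin-inducing feed that injures bile ducts. The labels also leave S2W and DOX unexpanded, and give neither the driver of the hepatocyte allele nor the age of the mice. They do not say that each library is a separate animal, so that p-values measure the spread between these libraries, which may be technical.

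Bche was 1938, 1867 and 1763 CPM (reads scaled to a common library size, as a normalised count) in DOX livers, against 177, 177 and 206 CPM in PBS livers. It was 9.94-fold higher in DOX livers (log2 fold change 3.31, SE 0.14, adjusted p = 1.65e-07, quasi-likelihood test of edgeR, adjusted by Benjamini-Hochberg). An effect of the DOX agent itself and an effect of raised Bche cannot be told apart in this design. Libraries held 32476725 to 40298256 reads assigned to genes in DOX and 40592030 to 41921404 in PBS. The 100 symbols together took 0.11 to 0.116% of reads in DOX and 0.119 to 0.125% in PBS. Mitochondrially encoded genes took 5.11 to 6.81% of reads in DOX and 3.45 to 4.58% in PBS, and the part of this difference in the results was not tested. In bulk tissue, fewer cells of a type and less RNA per cell cannot be told apart, which holds for every value below.

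Interleukins and TNF-type ligands are signals that immune, stromal and epithelial cells exchange, and most are made in small amounts by few cells. IL-1 and TNF receptors pass their signal through adaptor proteins to NF-kappaB and MAP kinases, whereas most other interleukin receptors are pairs or trios of chains that activate JAK kinases and STAT transcription factors. Soluble antagonists and decoy receptors hold the ligands in check. In the liver, hepatocytes carry receptors for IL-6, IL-22, IL-1 and TNF and answer with acute-phase proteins, survival signals or death, while Kupffer cells, lymphocytes and injured epithelium supply most ligands.

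The test called 8 of the 65 genes higher in DOX livers and 11 lower, and 46 did not pass. The called share was 29.2%, close to the 27.5% called over all genes (13.5% higher and 14.0% lower), so the share as such is not a result about these families. The median log2 fold change was -0.12 over the 65 genes and -0.01 over all genes tested. When the deposited FPKM (reads scaled by gene length and library total) were tested with limma on log2(FPKM + 0.1), the split was 6 higher and 15 lower. The same fit gave 948 higher and 3227 lower of all 14681 genes, so the lean to lower genes was not particular to these families. The CPM ranges of DOX and PBS were apart in 22 of the 65 genes, including 18 of the 19 that passed, where 44.1% of all genes had ranges apart. By name, 6 interleukin genes were higher and 8 lower of 41, and 2 TNF genes were higher and 3 lower of 24.

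**Figure D1:**
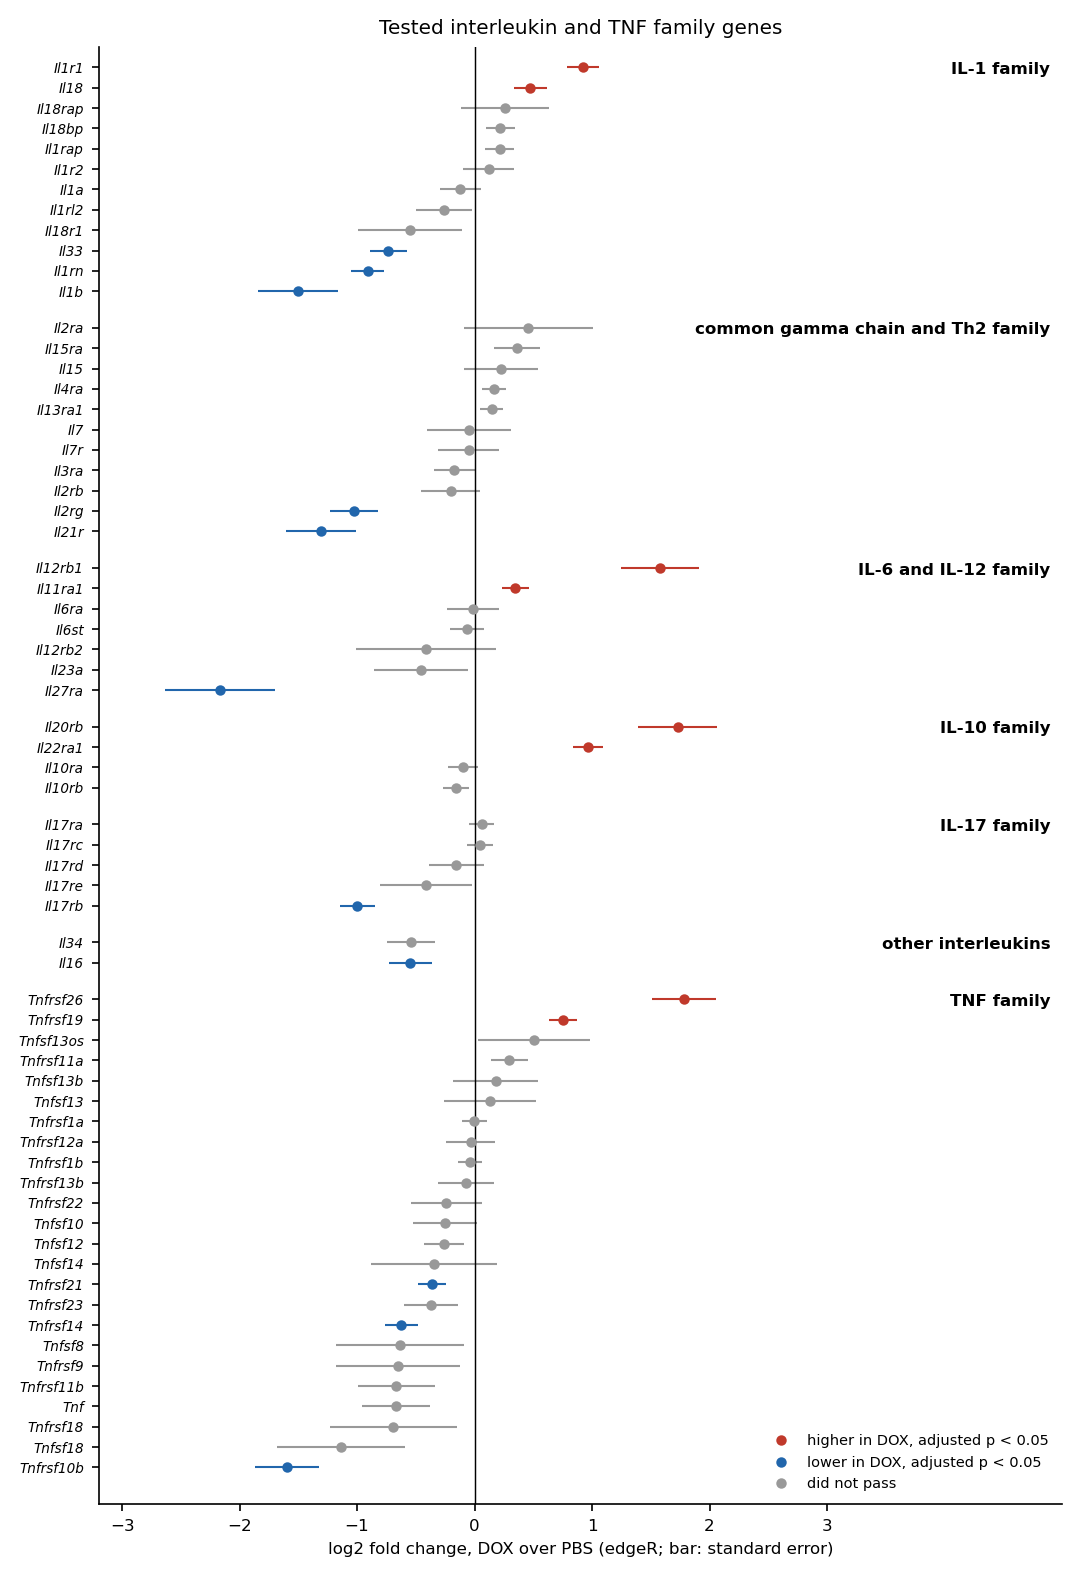
The log2 fold change of DOX over PBS (x axis, edgeR, bars are standard errors) is plotted for the 65 tested genes, grouped by family. Red points passed and are higher in DOX (8 genes), blue points passed and are lower (11 genes), and grey points did not pass. Il27ra lies farthest left among the called genes at -2.17 and Tnfrsf26 farthest right at 1.78.

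Receptors were far better covered than ligands. Per gene length, the median over 41 receptor chains was 1.76 FPKM in DOX livers and 2.38 FPKM in PBS livers, and over 18 ligands it was 0.756 FPKM in DOX and 1.02 FPKM in PBS. These medians do not measure a change between groups. FPKM are scaled by library totals, and on log2(FPKM + 0.1) the median log2 fold change of all genes was -0.15 (limma). In edgeR it was -0.05 over the 41 receptors and -0.34 over the 17 tested ligands. The highest level belonged to Tnfrsf12a, the receptor of the ligand TWEAK and a gene known from liver progenitor responses, at 83.2 ± 17.0 FPKM in DOX and 95 ± 29.1 FPKM in PBS (SD, n = 3 each). Tnfrsf1a, the main receptor of soluble TNF, followed at 52.9 ± 3.67 FPKM in DOX and 59.1 ± 1.98 FPKM in PBS. Il6st, the gp130 chain shared by IL-6, IL-11 and their relatives, was at 26.4 ± 3.08 FPKM in DOX and 30.8 ± 4.31 FPKM in PBS. None of these 3 passed the test, and the CPM ranges of their groups overlapped. Ranks below these lay close together: over all 6 libraries Il13ra1 averaged 16.8 FPKM, Il11ra1 and Tnfrsf1b 13.9 FPKM each, and Il1r1 12.8 FPKM. Among ligands Il18 was highest in DOX, at 4.35 ± 0.432 FPKM against 3.49 ± 0.356 FPKM in PBS, and Tnfsf12 was highest in PBS, at 4.35 ± 0.635 FPKM, with 3.26 ± 0.0903 FPKM in DOX. The lowest kept gene was Il12rb2, a receptor chain for IL-12, at 0.0324 FPKM.

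**Figure D2:**
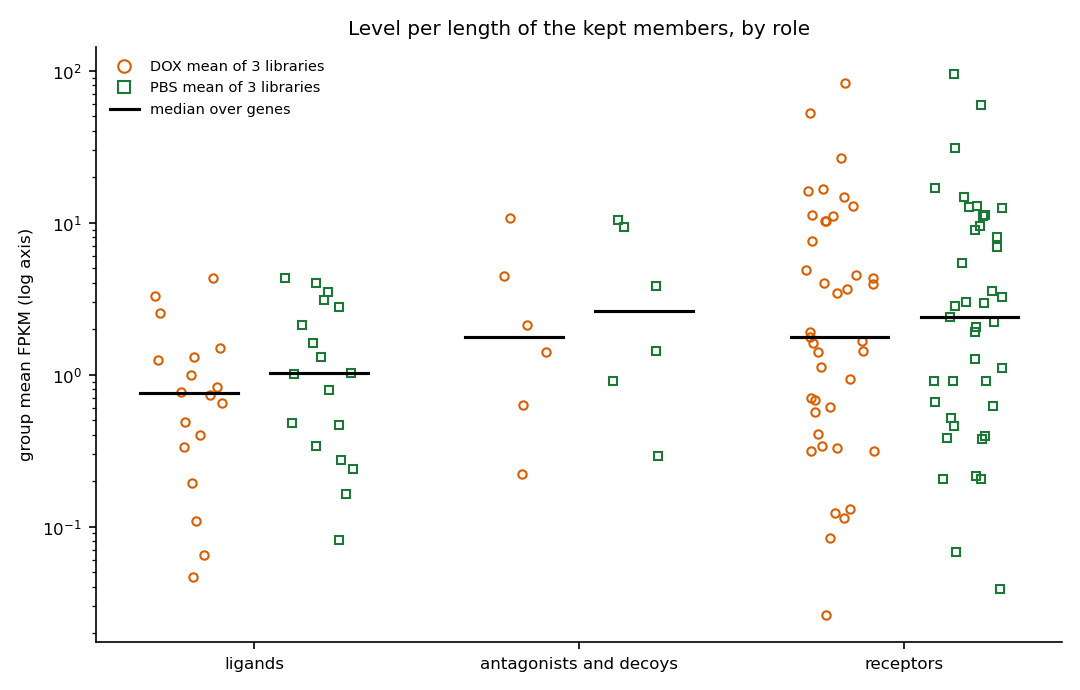
Group mean FPKM (log axis) of each kept gene is plotted for 18 ligands, 6 antagonists and decoys and 41 receptors, with DOX means left of PBS means in each role. Black bars are medians over genes, and the ligand medians of 0.756 FPKM in DOX and 1.02 FPKM in PBS are the lowest. FPKM are scaled by library totals, so the bars do not measure a change between DOX and PBS.

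Of 17 tested ligands 1 was higher and 3 were lower in DOX (23.5% called, with 27.5% over all genes), and those of the IL-1 family did not move as one. Il1b, the secreted ligand that starts IL-1 signalling after cleavage by caspase-1, was 2.70, 3.71 and 1.08 CPM in DOX livers, against 7.81, 7.03 and 6.53 CPM in PBS livers. Every DOX library was below every PBS library, by a mean factor of 2.84 (log2 fold change -1.50, SE 0.34, adjusted p = 0.01, edgeR). Il1a, the other agonist, which is active without cleavage, was 5.29 ± 0.313 CPM in DOX and 5.75 ± 0.866 CPM in PBS and did not pass (log2 fold change -0.12, SE 0.18). Il33, an alarmin stored in the nucleus and released by damaged cells, was 4.87, 4.92 and 4.38 CPM in DOX against 8.02, 7.44 and 8.13 CPM in PBS. Its groups stood clearly apart (1.66-fold lower, log2 fold change -0.73, SE 0.16, adjusted p = 0.00604, edgeR). Il1rl1, the receptor of IL-33, fell short of the read minimum, with 0, 1 and 4 reads in DOX and 8, 13 and 16 reads in PBS.

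Il18, the IL-1 family ligand that drives interferon-gamma in lymphocytes, was the only ligand called higher. It was 11, 13.4 and 11.3 CPM in DOX livers against 8.52, 9.22 and 7.96 CPM in PBS livers, without overlap (1.39-fold higher, log2 fold change 0.48, SE 0.14, adjusted p = 0.0271, edgeR). This call was lost without DOX replicate 2 (log2 fold change 0.39, adjusted p = 0.0596) and without PBS replicate 1 (0.47, adjusted p = 0.0725), 2 (0.53, adjusted p = 0.05003) or 3 (0.43, adjusted p = 0.0984, edgeR in each), and when libraries were scaled by their totals alone (0.32, adjusted p = 0.131). The Il18 call was also lost in limma on log2(FPKM + 1) and on log2(FPKM + 0.1). Il18bp, the secreted protein that captures IL-18, was at 52.5 ± 4.23 CPM in DOX and 45.1 ± 7.12 CPM in PBS and did not pass (log2 fold change 0.22, SE 0.13).

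Of the proteins that receive or block IL-1, the signalling receptor was higher and the antagonist lower in DOX livers. Il1r1, which binds both IL-1 agonists, was 87.3, 100.5 and 126 CPM in DOX against 56.4, 49.2 and 59.8 CPM in PBS. The lowest DOX library lay above the highest PBS library (1.90-fold higher, log2 fold change 0.92, SE 0.14, adjusted p = 0.00113, edgeR). Il1rn, the secreted antagonist that occupies Il1r1 without signalling, was 15.2, 11.9 and 12.6 CPM in DOX against 29.0, 22.2 and 23.4 CPM in PBS. All DOX libraries lay below all PBS libraries (1.88-fold lower, log2 fold change -0.91, SE 0.14, adjusted p = 0.00132, edgeR). The co-receptor Il1rap (log2 fold change 0.21, SE 0.12) and the decoy receptor Il1r2 (0.12, SE 0.22) did not pass. Il1r2 changed sign to -0.04 with scaling by library totals.

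Because ligand and antagonist were both lower, their ratio is given as a description chosen after the values were seen. Il1rn over Il1b, per gene length, was 3.78, 2.15 and 7.88 in DOX livers and 2.50, 2.13 and 2.41 in PBS livers, so that the ranges overlapped and DOX replicate 3, with the lowest Il1b, was the highest. Il1r1 over its decoy Il1r2 was 9.66, 10.9 and 14.1 in DOX and 5.21, 7.18 and 8.08 in PBS, without overlap.

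**Figure D3:**
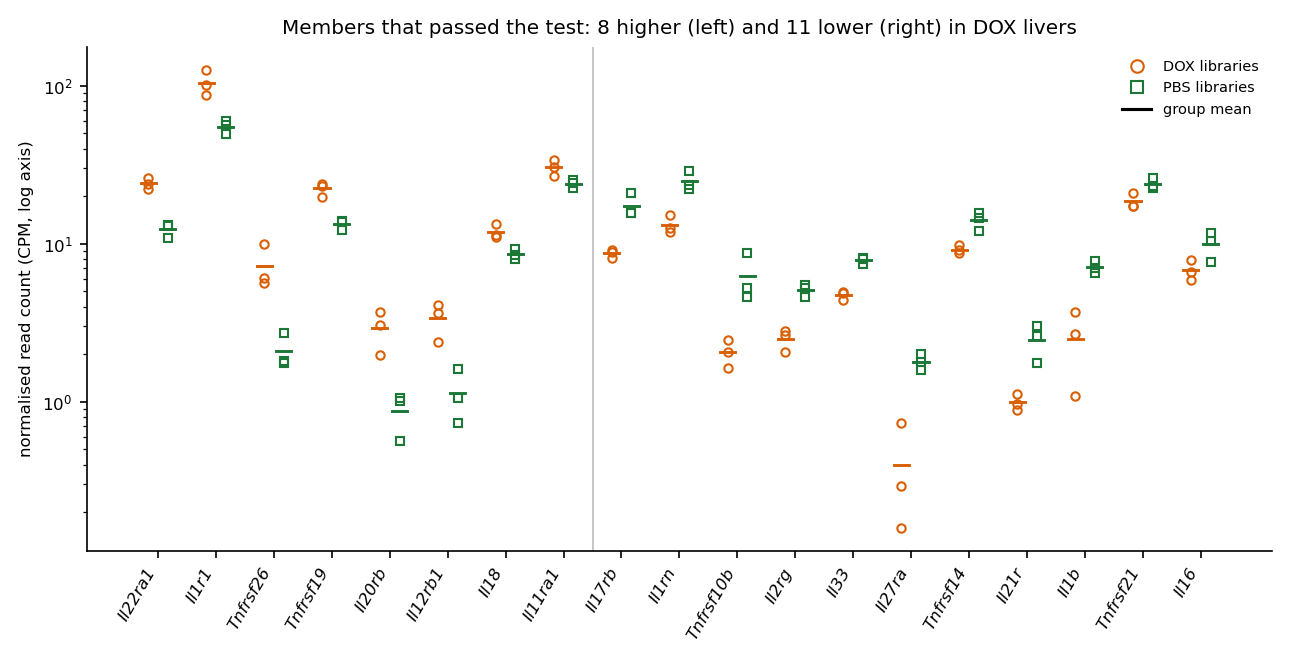
Normalised read counts (CPM, log axis) of the 19 genes that passed are plotted per library, with DOX circles left of PBS squares and a bar at each group mean. The 8 higher genes stand left of the grey line and the 11 lower genes right of it, and Il16 is the only one whose groups overlap.

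The start regions of Il1b, Il1rn and Il1r1 are shown so that their upstream sequence can be set beside the values. Each run is the 250 bases before a transcription start in RefSeq, on the mouse assembly GRCm38.p6 and on the gene's own strand, 5′ to 3′. Capitals mark matches to 1 of 4 motifs searched on both strands, counted back from the start, and no 2 matches overlap in the windows shown. The motifs were the NF-kappaB consensus, the STAT motif TTCNNNGAA, the TATA motif TATAAA and the AP-1 motif TGANTCA. The Il1b window (chr2:129371140-129371389, minus strand) has a TATA match at bases -31 to -26. The Il1rn window, before the first of 3 starts (chr2:24336610-24336859, plus strand), has an AP-1 match at -141 to -135. The Il1r1 window, before the second of 2 starts (chr1:40266336-40266585, plus strand), has an NF-kappaB match on its minus strand at -232 to -223. The windows before the other starts of Il1rn and Il1r1 hold no match and are not shown. Il18 and Il33, the other called genes of the IL-1 family, are not shown either, and their windows hold TATA matches only.
Il1b: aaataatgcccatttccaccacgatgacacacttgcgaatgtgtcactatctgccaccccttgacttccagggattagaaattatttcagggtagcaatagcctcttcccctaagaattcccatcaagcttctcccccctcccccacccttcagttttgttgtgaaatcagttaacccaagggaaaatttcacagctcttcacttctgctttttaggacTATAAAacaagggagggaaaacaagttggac
Il1rn: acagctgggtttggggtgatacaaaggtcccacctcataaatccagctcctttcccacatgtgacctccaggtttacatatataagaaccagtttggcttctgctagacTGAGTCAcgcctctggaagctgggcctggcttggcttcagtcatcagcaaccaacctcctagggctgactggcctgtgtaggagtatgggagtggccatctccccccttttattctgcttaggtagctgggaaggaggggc
Il1r1: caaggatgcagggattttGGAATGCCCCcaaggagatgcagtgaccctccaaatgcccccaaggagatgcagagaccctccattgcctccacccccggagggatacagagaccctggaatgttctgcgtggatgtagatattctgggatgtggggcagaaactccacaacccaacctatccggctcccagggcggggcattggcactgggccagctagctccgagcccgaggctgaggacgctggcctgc

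Windows were found for 49 of the 66 kept genes (62 windows) and 15 of the 19 that passed (23 windows), and windows of 1 gene can overlap. Il12rb1, Il27ra, Tnfrsf10b and Tnfrsf26 had none. NF-kappaB matches were in 8.06% of the kept genes' windows (5 windows) and in 7.25% of the windows of all genes. AP-1 matches were in 16.1% (10 windows) against 6.75%, TATA matches in 14.5% (9 windows) against 12.4%, and STAT matches in 12.9% (8 windows) against 7.02%. Among the 23 windows of genes that passed, 3 had an NF-kappaB match, 4 an AP-1 match, 4 a TATA match and 0 a STAT match. These matches describe letters only and say nothing of binding.

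Of 41 receptor chains, 7 were higher and 7 lower in DOX (34.1% called, with 27.5% over all genes). In the IL-10 family 2 of 4 tested genes were called (50%, with 27.5% over all genes), and both were higher. Il22ra1, the chain that gives hepatocytes and other epithelia their response to IL-22, had the smallest p of all 65 genes. It was 22.3, 23.9 and 26.1 CPM in DOX livers against 10.8, 12.9 and 13.2 CPM in PBS livers, with a wide gap between the groups (1.95-fold higher, log2 fold change 0.97, SE 0.12, adjusted p = 0.000552, edgeR). Its gene lies at chr4:135728172-135752140, and its 250 upstream bases (chr4:135727909-135728158, plus strand) hold an AP-1 match at -222 to -216 and an NF-kappaB match on the minus strand at -156 to -147, in capitals.
Il22ra1: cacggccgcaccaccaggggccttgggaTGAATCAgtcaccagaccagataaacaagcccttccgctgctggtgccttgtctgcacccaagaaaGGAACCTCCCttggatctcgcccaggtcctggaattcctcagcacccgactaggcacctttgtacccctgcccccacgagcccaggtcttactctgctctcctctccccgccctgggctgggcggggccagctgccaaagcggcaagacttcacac

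Il20rb, a chain that joins Il20ra or Il22ra1 to receive IL-20 and IL-24, was 3.04, 1.97 and 3.71 CPM in DOX livers against 1.06, 1 and 0.562 CPM in PBS livers. The groups did not overlap, at a low level of 1.12 ± 0.357 FPKM in DOX and 0.375 ± 0.125 FPKM in PBS (3.31-fold higher in CPM, log2 fold change 1.73, SE 0.34, adjusted p = 0.00418, edgeR). Its partner Il20ra had 1 read in all 6 libraries together. Il10rb, the chain shared by IL-10 and IL-22 and the partner of Il22ra1, was at 33.4 ± 3.75 CPM in DOX and 37.3 ± 1.4 CPM in PBS and did not pass (log2 fold change -0.16, SE 0.11). Il10ra, which binds IL-10 itself, was at 16.8 ± 1.99 CPM in DOX and 17.9 ± 1.29 CPM in PBS and did not pass. Il10 had 1, 8 and 3 reads in DOX and 0, 1 and 1 reads in PBS, under the read minimum.

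In the IL-17 family 1 of 5 receptors was called (20%, with 27.5% over all genes). Il17rb, which binds IL-25 together with Il17ra, was 8.15, 9.17 and 8.86 CPM in DOX livers against 15.8, 21 and 15.6 CPM in PBS livers. The DOX libraries lay close together and all below PBS (2-fold lower, log2 fold change -1, SE 0.15, adjusted p = 0.00108, edgeR). Il17ra, the chain common to the family, was at 31.7 ± 2.85 CPM in DOX and 30.4 ± 0.402 CPM in PBS (log2 fold change 0.06, SE 0.10, not passing, and -0.10 with scaling by library totals). Il17rb shares 141 exon bases with Actr8 on the other strand, and whether counting used strand is not given in the sources used here. The 250 bases before its start (chr14:30008897-30009146, minus strand) have an AP-1 match at -104 to -98, in capitals.
Il17rb: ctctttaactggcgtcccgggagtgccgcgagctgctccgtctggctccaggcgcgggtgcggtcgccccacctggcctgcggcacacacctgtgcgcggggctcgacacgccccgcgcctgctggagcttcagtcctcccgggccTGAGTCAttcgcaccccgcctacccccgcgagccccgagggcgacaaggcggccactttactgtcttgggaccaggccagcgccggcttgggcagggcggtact

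In the IL-6 and IL-12 family 2 of 7 tested genes were higher and 1 lower (42.9% called, with 27.5% over all genes), all of them receptors. Il12rb1, the chain shared by the receptors of IL-12 and IL-23, was 3.63, 4.13 and 2.38 CPM in DOX livers against 1.61, 0.730 and 1.05 CPM in PBS livers. All DOX values were above all PBS values (2.98-fold higher, log2 fold change 1.58, SE 0.33, adjusted p = 0.00576, edgeR). Il27ra, which joins Il6st to receive IL-27, was 0.291, 0.737 and 0.159 CPM in DOX against 2, 1.6 and 1.78 CPM in PBS. It was 4.50-fold lower in DOX livers (log2 fold change -2.17, SE 0.47, adjusted p = 0.00648, edgeR) and reached -2.94 without DOX replicate 2 (adjusted p = 0.000537). It was the only called gene that met the read minimum through 1 group alone, of 8 kept genes that did so.

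Il11ra1, the ligand-binding chain for IL-11, was 33.9, 27.0 and 30.8 CPM in DOX livers against 24.3, 25.4 and 22.5 CPM in PBS livers. The groups were apart by a small step (log2 fold change 0.35, SE 0.12, adjusted p = 0.0425, edgeR). The call was kept without DOX replicate 2, and lost without DOX replicate 1 (0.26, adjusted p = 0.15), DOX replicate 3 (0.34, adjusted p = 0.106), PBS replicate 1 (0.35, adjusted p = 0.103), PBS replicate 2 (0.39, adjusted p = 0.0771) or PBS replicate 3 (0.30, adjusted p = 0.145), and under scaling by library totals (0.19, adjusted p = 0.268, edgeR in each). Both limma fits on FPKM, and edgeR with the replicate number as a block, lost the Il11ra1 call as well. Il11ra2, the near-identical copy of Il11ra1, had 0 to 2 reads per library, and how reads shared between copies were counted is unknown. Il6ra, the IL-6 binding chain of hepatocytes, ranged from 28.6 to 51.6 CPM in DOX and from 31.6 to 48.3 CPM in PBS, with a log2 fold change of -0.01 (SE 0.22). The ligand Il6 had 0, 8 and 3 reads in DOX and 1, 1 and 1 reads in PBS, under the read minimum.

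The 11 tested genes of the common gamma chain and Th2 group, which takes in Il3ra, Il13ra1 and the ligands Il7 and Il15, included 2 lower and 0 higher genes (18.2% called, with 27.5% over all genes). At an unadjusted p under 0.05, edgeR also gave 2 lower and 0 higher, and DESeq2 called 2 lower and 0 higher. Il2rg, the common gamma chain of the receptors for IL-2, IL-4, IL-7, IL-15 and IL-21, was 2.80, 2.65 and 2.06 CPM in DOX livers against 5.48, 4.63 and 5.25 CPM in PBS livers. There was no overlap (2.04-fold lower, log2 fold change -1.03, SE 0.21, adjusted p = 0.00457, edgeR). Il21r, the private chain for IL-21, was 1.11, 0.973 and 0.889 CPM in DOX against 2.99, 2.62 and 1.76 CPM in PBS. Again all DOX libraries were lower (2.47-fold, log2 fold change -1.31, SE 0.30, adjusted p = 0.00866, edgeR). Il2rg shares 728 exon bases on its own strand with Gm20489, a gene that has no entry in the deposited table, so reads from that stretch cannot be assigned with certainty.

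Other genes of that group did not pass. Il4ra, which receives IL-4 and IL-13, was at 62.3 ± 5.40 CPM in DOX and 55.6 ± 1.15 CPM in PBS (log2 fold change 0.16, SE 0.10). Its partner Il13ra1 was at 65.7 ± 4.52 CPM in DOX and 59.3 ± 2.03 CPM in PBS (0.15, SE 0.10, and -0.01 with scaling by library totals). Il7r ranged from 5.57 to 10.1 CPM in DOX and from 5.23 to 9.16 CPM in PBS. Il15ra, which presents IL-15 to neighbouring cells, was 15.6, 14.1 and 24.9 CPM in DOX and 15.6, 14.1 and 12.8 CPM in PBS. A single DOX library set its log2 fold change of 0.36 (SE 0.20, adjusted p = 0.197, edgeR), which passed without DOX replicate 2 (0.52, adjusted p = 0.0443). The ligand Il15 (0.23, SE 0.31) and the ligand Il7 (-0.04, SE 0.36) did not pass.

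Il16, a chemoattractant of CD4+ T cells, was 5.90, 7.87 and 6.60 CPM in DOX livers against 11.7, 7.71 and 10.4 CPM in PBS livers. PBS replicate 2 lay inside the DOX range, which made it the only called gene with overlapping groups (log2 fold change -0.55, SE 0.18, adjusted p = 0.0450, edgeR). The call was lost without DOX replicate 1 (-0.46, adjusted p = 0.147), DOX replicate 3 (-0.53, adjusted p = 0.115), PBS replicate 1 (-0.41, adjusted p = 0.17) or PBS replicate 3 (-0.51, adjusted p = 0.124, edgeR in each). It also shares 1202 exon bases with Stard5 on the other strand. Il34, the second ligand of the macrophage receptor Csf1r, was at 3.82 ± 0.620 CPM in DOX and 5.56 ± 0.996 CPM in PBS and did not pass (-0.54, SE 0.21, adjusted p = 0.0723, edgeR), although it passed with scaling by library totals (-0.70, adjusted p = 0.0260).

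In the TNF superfamily 5 of 24 tested genes were called (20.8%, with 27.5% over all genes), and these were receptors. Tnf itself was 1.35, 1.18 and 1.33 CPM in DOX livers against 2.56, 2.05 and 1.52 CPM in PBS livers, without overlap. It did not pass in edgeR (log2 fold change -0.67, SE 0.29, adjusted p = 0.109) and passed in limma on log2(FPKM + 1) (-0.40, adjusted p = 0.0395) and log2(FPKM + 0.1) (-0.72, adjusted p = 0.0355). Its receptors Tnfrsf1a and Tnfrsf1b did not pass, with log2 fold changes of -0.00 (SE 0.10) and -0.04 (SE 0.10). Tnfsf10, the death ligand TRAIL (-0.25, SE 0.27), Tnfsf12, the ligand TWEAK (-0.26, SE 0.17), Tnfsf13b, the B cell factor BAFF (0.18, SE 0.36), and Tnfsf14, the ligand LIGHT (-0.34, SE 0.53), did not pass. Tnfsf12 passed on log2(FPKM + 0.1) alone (-0.39, adjusted p = 0.0484, limma).

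Tnfrsf10b, the death receptor of TRAIL in mice, was 1.64, 2.06 and 2.48 CPM in DOX livers against 4.63, 8.74 and 5.27 CPM in PBS livers. All DOX libraries were below all PBS libraries (3.02-fold lower, log2 fold change -1.60, SE 0.27, adjusted p = 0.00218, edgeR). Tnfrsf14, the receptor that binds LIGHT and the lymphocyte brake BTLA, was 8.68, 9.75 and 9.08 CPM in DOX against 15.7, 14.6 and 12.0 CPM in PBS. It was 1.54-fold lower without overlap (log2 fold change -0.62, SE 0.14, adjusted p = 0.00848, edgeR). Tnfrsf21, known as death receptor DR6, was 17.5, 21 and 17.4 CPM in DOX against 26.0, 22.5 and 23.2 CPM in PBS. Its step was small (log2 fold change -0.36, SE 0.12, adjusted p = 0.0431, edgeR) and still passed without DOX replicate 2. Without 1 of the other libraries it did not pass, at -0.32 (adjusted p = 0.120) without DOX replicate 1, -0.32 (adjusted p = 0.134) without DOX replicate 3, and -0.30 (adjusted p = 0.154), -0.40 (adjusted p = 0.0730) and -0.38 (adjusted p = 0.0868) without PBS replicates 1, 2 and 3 (edgeR in each).

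Tnfrsf19, also called TROY, a receptor studied in stem and progenitor cells, was 19.8, 23.3 and 24.0 CPM in DOX livers against 13.7, 12.3 and 13.9 CPM in PBS livers. The gap was wider than either group's range (1.69-fold higher, log2 fold change 0.75, SE 0.12, adjusted p = 0.00164, edgeR). Tnfrsf26 was 6.03, 5.66 and 10.03 CPM in DOX against 2.74, 1.80 and 1.76 CPM in PBS. It was 3.44-fold higher without overlap (log2 fold change 1.78, SE 0.27, adjusted p = 0.00123, edgeR), and 107 of its exon bases are shared with the antisense transcript E230032D23Rik. It sits in a run that spans chr7:143607659-143685872 with Tnfrsf22 and Tnfrsf23, which encode decoy receptors for TRAIL in mice. These neighbours, named after their values were seen, had log2 fold changes of -0.24 (SE 0.30) and -0.37 (SE 0.23) and did not pass.

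Antagonists and decoys numbered 6, with Il1rn lower and none higher in edgeR (16.7% called, with 27.5% over all genes). At an unadjusted p under 0.05 edgeR gave 0 higher and 1 lower, and DESeq2 called 0 higher and 1 lower. Tnfrsf11b, osteoprotegerin, which captures the ligands RANKL and TRAIL, was 5.72, 9.55 and 3.46 CPM in DOX livers against 12.4, 8.90 and 8.43 CPM in PBS livers. The groups overlapped through DOX replicate 2 (log2 fold change -0.67, SE 0.33, adjusted p = 0.166, edgeR), and without that library the gene passed (-1.09, adjusted p = 0.00647).

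In GENCODE M21, 16 runs of genes no more than 200000 bases apart held 39 of the 97 symbols found there, and 4 of these runs, that of Tnfrsf26 among them, held a called gene, 1 in each. The IL-1 receptor run at chr1:40074079-40551705 holds Il1r2, Il1r1, Il1rl2, Il1rl1, Il18r1 and Il18rap, and of these only Il1r1 passed. In the run at chr2:129299610-129375748 Il1b passed and its neighbour Il1a did not. At chr7:125552120-125633570 Il21r passed and Il4ra did not.

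A total of 34 symbols stayed under the read minimum, 21 of them with fewer than 10 reads over all 6 libraries and none with more than 49. Tnfrsf25, a receptor on T cells, had 2, 2 and 3 reads in DOX and 6, 23 and 3 reads in PBS. Il12b, a subunit of IL-12 and IL-23, had 0 reads in every DOX library and 0, 4 and 0 reads in PBS. Tnfsf9, a T cell costimulator, met the minimum but not the filter of the test, with 8, 6 and 4 reads in DOX and 12, 22 and 10 reads in PBS. At these counts no difference was tested.

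Kin of these families outside the symbol rule, such as lymphotoxins, LIF and oncostatin M receptors, were listed as 31 symbols, of which 24 were tested. In DOX livers 1 was higher and 5 were lower (25.0% called, 27.5% over all genes). Eda2r, a TNF receptor for ectodysplasin A2, was at 1.03 ± 0.332 CPM in DOX and 4.83 ± 1.92 CPM in PBS (log2 fold change -2.22, SE 0.35, adjusted p = 0.00148, edgeR). Ltb, the membrane partner of lymphotoxin alpha, was at 5.13 ± 1.77 CPM in DOX and 11.2 ± 2.19 CPM in PBS (-1.12, SE 0.24, adjusted p = 0.00712), while its receptor Ltbr was at 136 ± 9.90 CPM in DOX and 104 ± 8.34 CPM in PBS (0.38, SE 0.11, adjusted p = 0.0226). Osmr, the oncostatin M receptor, was at 12.2 ± 0.681 CPM in DOX and 16.6 ± 0.807 CPM in PBS (-0.45, SE 0.12, adjusted p = 0.0173). The Ltbr call was lost without DOX replicates 1 (0.32) or 3 (0.39) and without PBS replicates 2 (0.36) or 3 (0.33), and the Osmr call without DOX replicate 1 (-0.41) and PBS replicates 2 (-0.43) or 3 (-0.42). The lower count of this list was 2 without DOX replicate 1, PBS replicate 2 or PBS replicate 3, 3 without DOX replicate 3 or PBS replicate 1, and 6 without DOX replicate 2.

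**Figure D4:**
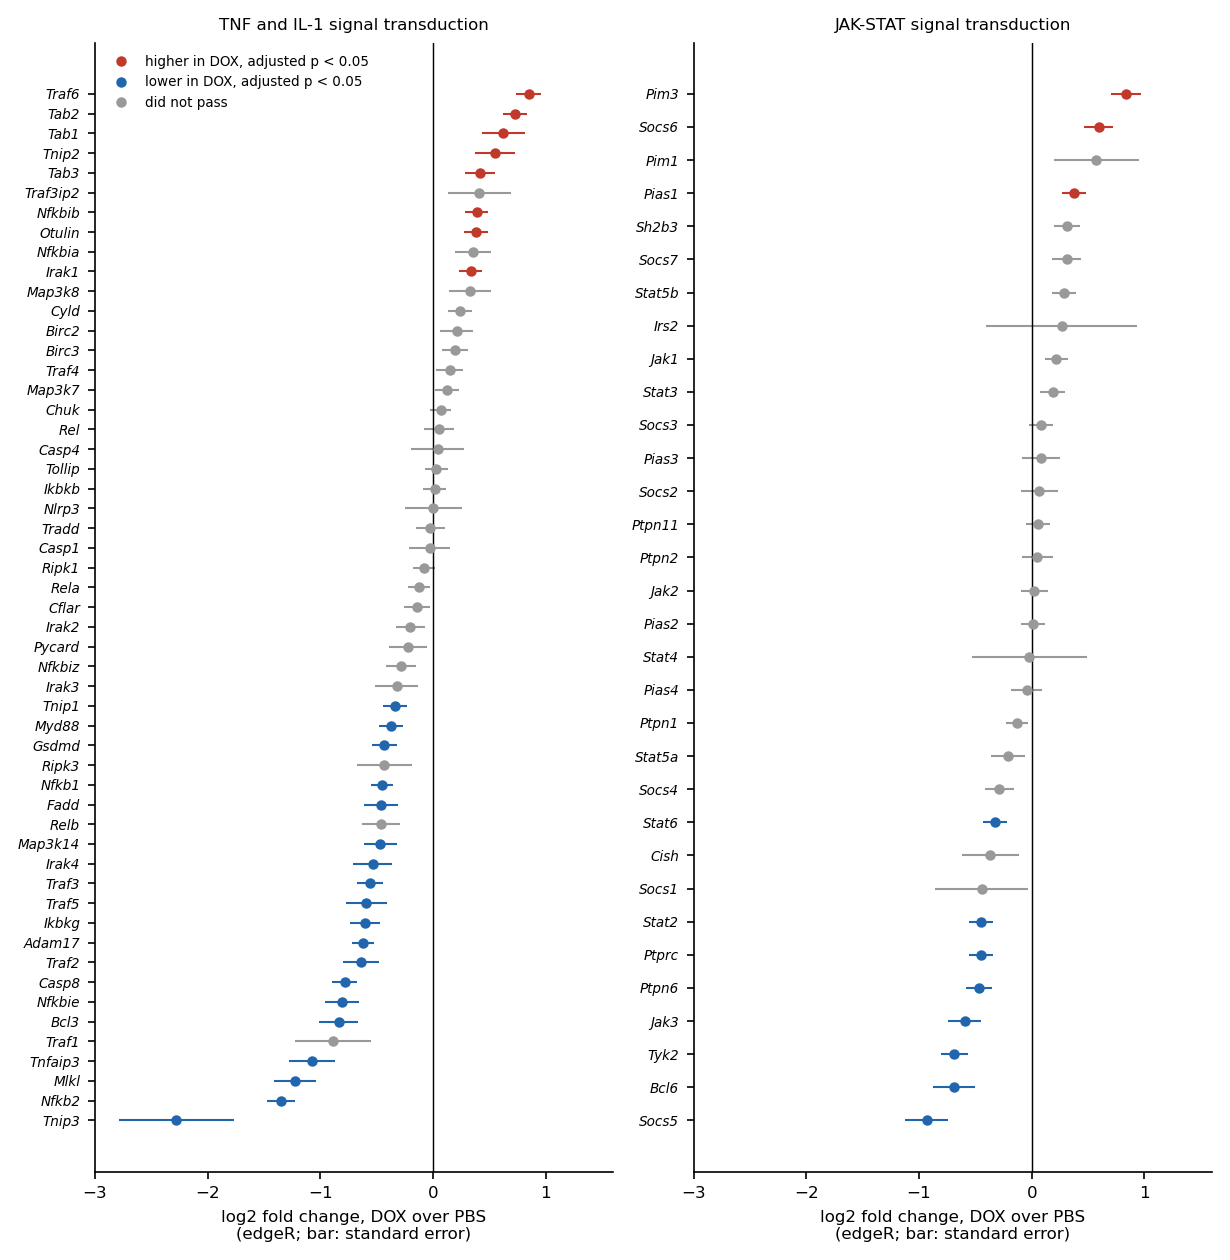
The log2 fold change of DOX over PBS (x axis, edgeR, bars are standard errors) is plotted for 53 genes of TNF and IL-1 signal transduction (left) and 32 of the 33 of JAK-STAT signal transduction (right). In the left panel 8 genes passed as higher (red) and 19 as lower (blue), and in the right panel 3 and 8.

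Downstream of the IL-1 and TNF receptors, 53 adaptor, kinase and NF-kappaB genes were tested. In DOX livers 8 were higher and 19 lower (50.9% called, 27.5% over all genes), with a median log2 fold change of -0.14. This list, like the kin and JAK-STAT lists, was chosen with earlier results of these data known, so the share is a description. Nfkb2, the p100 precursor of alternative NF-kappaB, was at 11.3 ± 0.812 CPM in DOX and 28.8 ± 3.07 CPM in PBS (log2 fold change -1.35, SE 0.12, adjusted p = 8.08e-05, edgeR). Casp8, the caspase engaged by death receptors, was at 17.9 ± 1.79 CPM in DOX and 30.7 ± 1.24 CPM in PBS (-0.78, SE 0.11, adjusted p = 0.000899). Higher in DOX were Traf6, the ubiquitin ligase behind IL-1 receptors, at 39.1 ± 3.99 CPM against 21.6 ± 1.27 CPM in PBS (0.85, SE 0.11, adjusted p = 0.000582), and Tab2, its link to the kinase TAK1, at 104 ± 10.1 CPM against 62.7 ± 4.12 CPM in PBS (0.73, SE 0.11, adjusted p = 0.00104). The split of this list depended on scaling, with 2 higher and 22 lower when libraries were scaled by their totals alone, and on single libraries, with 2 to 11 higher and 11 to 17 lower in fits without 1 library. The higher count was 4 without DOX replicate 1, 2 without DOX replicate 3, 4 without PBS replicate 1 and 3 without PBS replicate 2 or 3. The lower count was 11 without PBS replicate 2.

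In DOX livers, the test called 3 of 33 JAK-STAT genes higher and 9 lower (36.4% called, 27.5% over all genes), with a median log2 fold change of 0.01. Scaling by library totals gave 2 higher and 11 lower. Tyk2, a kinase of the IL-12 and IL-10 type receptors, was at 19.0 ± 2.41 CPM in DOX and 30.5 ± 1.39 CPM in PBS (log2 fold change -0.69, SE 0.12, adjusted p = 0.00229, edgeR). Socs5, an inhibitor of cytokine signalling, was at 7.83 ± 2.26 CPM in DOX and 14.9 ± 1.70 CPM in PBS (-0.93, SE 0.19, adjusted p = 0.00507), and Pim3, a STAT-induced kinase, at 102 ± 17.1 CPM in DOX and 57.0 ± 5.70 CPM in PBS (0.84, SE 0.13, adjusted p = 0.00148). Stat3, which carries the IL-6, IL-11 and IL-22 signals, and its target Socs3, both named after their values were seen, did not pass (0.19, SE 0.11, and 0.08, SE 0.10).

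Several called genes are borne mainly by leukocytes, and marker lists of other cell types are given beside them. The share to set beside each count of called markers is that over all genes, 13.5% higher and 14.0% lower in edgeR. The T and NK cell list (15 of 17 symbols in the table) summed to 3.65 to 6.64 CPM in DOX livers and 8.67 to 12.7 CPM in PBS livers. Il2rg, Il21r, Il27ra and Il16 were lower as well, but Il27ra met the read minimum through PBS alone and the groups of Il16 overlapped. Of the 13 tested genes of the T and NK cell list 2 were lower in edgeR, near the lower share over all genes, and 0 higher. At an unadjusted p under 0.05 in edgeR the list had 6 lower and 0 higher, and in DESeq2 3 lower and 0 higher. In this list Cd8b1 had 0 reads in DOX replicate 2 and Foxp3 in DOX replicate 3, and Foxp3 was also low in PBS (0.0234 CPM in replicate 3). Gzma leaned the other way without passing (log2 fold change 0.52, SE 0.56, edgeR). Prf1, which was not tested, was 0.147 to 0.222 CPM in DOX and 0.0703 to 0.138 CPM in PBS. The dendritic cell list (8 genes) summed to 30.0 to 34.0 CPM in DOX and 47.6 to 49.2 CPM in PBS, with 6 of 7 tested genes lower, Siglech at 0 reads in DOX replicates 1 and 3 and Xcr1 in DOX replicate 3. Neutrophils and monocytes are sources of Il1b and Il1rn, and their markers went both ways. Neutrophil markers (9 genes) summed to 44.2 to 95.1 CPM in DOX and 45.2 to 68.4 CPM in PBS. Of 7 tested, Csf3r (10.8 ± 2.70 CPM in DOX and 22.5 ± 5.42 CPM in PBS) and Cxcr2 (3.51 ± 1.36 CPM in DOX and 6.5 ± 0.546 CPM in PBS) were lower, in the direction of Il1b and Il1rn, and Mmp8, Ngp and Retnlg were higher. Ly6g, which defines neutrophils, had 0 reads in DOX replicate 2 and in all PBS libraries. Macrophage and monocyte markers (15 genes) summed to 2480 to 2595 CPM in DOX and 2346 to 2589 CPM in PBS. Of these Ccr2, the receptor of recruited monocytes (12.8 ± 3.27 CPM in DOX and 26.4 ± 5.36 CPM in PBS), and Cd5l were lower, and Vsig4, Marco and Itgam were higher. The summed ranges of both lists overlapped.

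Endothelial markers (9 genes) summed to 280 to 339 CPM in DOX livers and 234 to 270 CPM in PBS livers, with 3 genes higher and 0 lower. Hepatocyte markers (8 genes) summed to 92257 to 118939 CPM in DOX and 90624 to 96676 CPM in PBS, overlapping, with 3 genes higher. Over all genes 13.5% were higher and 14.0% lower, which holds beside every count of called markers in this paragraph. Stellate cell and fibroblast markers (11 genes) were at 886 to 1196 CPM in DOX and 1399 to 1681 CPM in PBS, with 5 genes lower and 1, Pdgfra, higher. The collagens Col1a1 (87.5 ± 25.7 CPM in DOX and 241 ± 52.0 CPM in PBS) and Col3a1 (238 ± 63.1 CPM in DOX and 657 ± 60.8 CPM in PBS) were lower by more, together, than the means of the sum differed (1092 CPM in DOX and 1558 CPM in PBS). Cholangiocyte markers (8 genes) were at 541 to 777 CPM in DOX and 776 to 939 CPM in PBS, ranges that meet, with Sox9 and Cftr lower. Spp1, which gave most of that sum, did not pass. B and plasma cell markers (8 genes) summed to 162 to 204 CPM in DOX and 144 to 157 CPM in PBS, and mast cell and basophil markers (5 of 6 symbols) to 6.48 to 9.16 CPM in DOX and 5.67 to 7.60 CPM in PBS. Pax5, which defines B cells, had 0 reads in all DOX libraries, and the mast cell genes Cpa3, Mcpt8 and Fcer1a had 0 reads in at least 3 libraries each. The part of these cell types in the interleukin and TNF results was not tested.

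**Figure D5:**
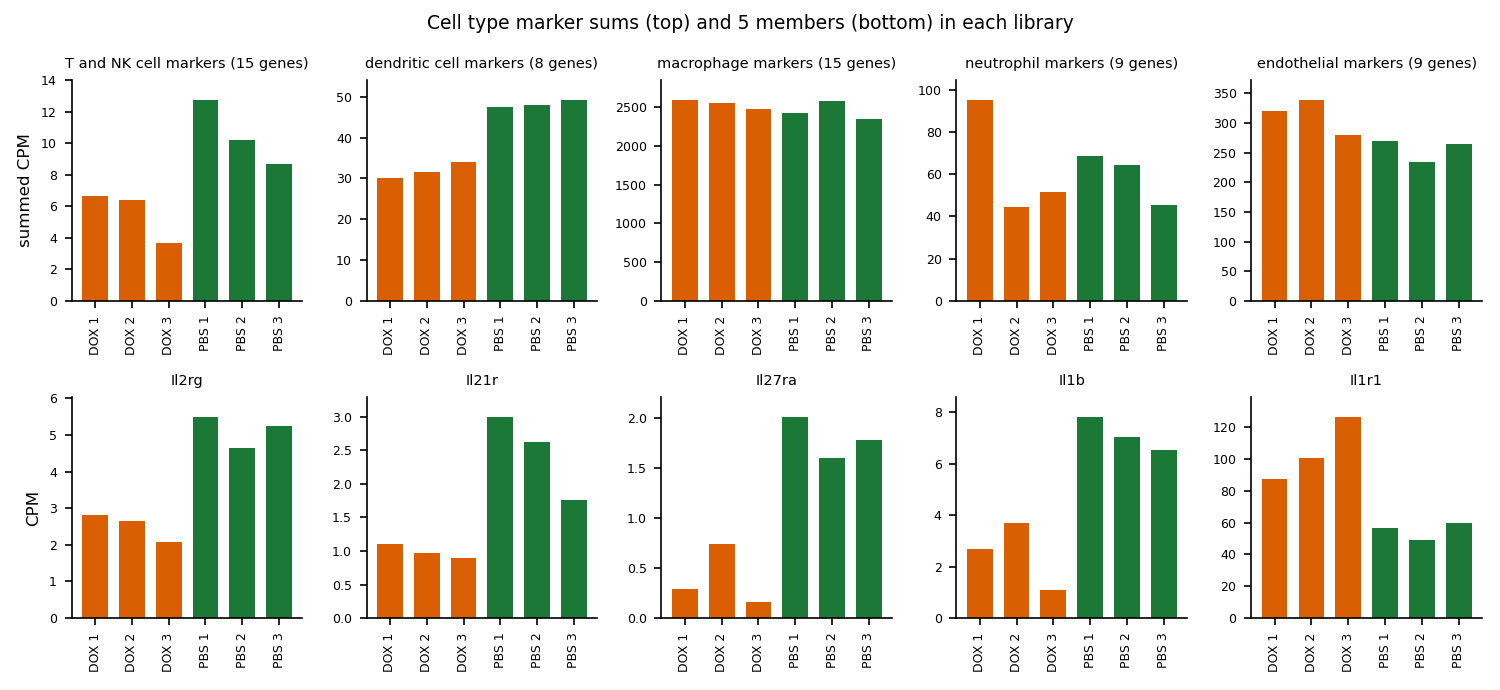
Each bar is 1 library, with DOX left of PBS: summed CPM of 5 cell type marker lists (top) and CPM of 5 interleukin genes (bottom). The T and NK cell sum (3.65 to 6.64 CPM in DOX, 8.67 to 12.7 CPM in PBS) and Il2rg, Il21r, Il27ra and Il1b are lower in every DOX library, while the macrophage and neutrophil sums overlap.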

How the data were processed

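Liver RNA of 6 libraries was sequenced after SMARTER mRNA-seq preparation, per the labels' protocols. The authors deposited raw read counts per gene symbol for all 6 libraries, and the FPKM values deposited beside them equal count divided by gene length and library total, to a relative spread of 1.8e-06. The builds GRCm38, mm10 and hg38 appear, with no role given, per the submitters' processing notes. The aligner, counter, annotation and strand setting are not stated there or in the labels.

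Counts of all 22183 symbols were filtered by filterByExpr and tested with edgeR 4.0.16 (TMM scaling, robust quasi-likelihood fit, group as the only term) in R 4.3.3. P-values were adjusted by Benjamini-Hochberg over 14681 genes and called under 0.05. CPM use the TMM-scaled library sizes, and the SE of a log2 fold change is its size divided by the square root of the F statistic. Family members and gene lists were chosen with earlier results of these data known. Every called member is named, with a chosen set of ligands and receptors, and up to 4 called genes of each signalling or kin list, by smallest p. A gene of the JAK-STAT list is counted but not reported here by itself.

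No library was a copy of another of its group (chi-square per degree of freedom between their counts 30.0 to 83.9). Replicate numbers did not mark shared animals in the labels. With 3 libraries a group, precision is set by the spread between libraries. Alternatives were RLE scaling, library totals alone, another filter, no filter, DESeq2 1.42.0, limma 3.58.1 on log2(FPKM + 1) and log2(FPKM + 0.1), the replicate number as a block, and each library left out. The test was tried on simulated counts. Gene positions and exon overlaps are from GENCODE M21 on GRCm38, and upstream sequences from RefSeq on GRCm38.p6.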

Additional observations from a re-analysis of the deposited data

How the results depend on the processing

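Of the 19 called members, 15 kept their call under all 14 alternatives, and of 266 values 239 kept direction and side of the threshold, 27 lost the call and 0 changed sign. The losses were those of Il18 (under 7 alternatives), Il11ra1 (9), Tnfrsf21 (6) and Il16 (5). Those of Il11ra1, Tnfrsf21 and Il16 included the fit with the replicate number as a block. On log2(FPKM + 1), where the pseudocount shrinks low genes by construction, log2 fold changes came to 0.76 for Tnfrsf26, 0.61 for Il20rb, 0.37 for Il12rb1, -0.56 for Il27ra, -0.52 for Il21r and -0.90 for Tnfrsf10b, all still called. The counts of members stayed within 1.5 times of the 8 higher and 11 lower genes throughout, at 6 to 8 higher and 9 to 12 lower without 1 library.

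Scaling by library totals alone shifted the median log2 fold change of all genes to -0.16, and gave 1028 higher and 3429 lower genes where TMM gave 1975 and 2062. Limma gave 917 and 3202 on log2(FPKM + 1), and 948 and 3227 on log2(FPKM + 0.1). FPKM are likewise scaled by library totals. Without 1 library, 1208 to 2440 genes were higher and 1305 to 2348 lower. The counts fell by over 1.5 times without DOX replicate 3 (1208 higher, 1329 lower), PBS replicate 2 (1233 higher, 1305 lower) and, among higher genes, PBS replicate 3 (1229). Called kin were 0 higher by library totals (edgeR, 0 at an unadjusted p under 0.05) and by both limma fits (1 at an unadjusted p under 0.05 in each), against 1 in DESeq2. Without 1 library they were 0 to 1 higher, with 1 to 4 at an unadjusted p under 0.05, and 2 to 6 lower. TNF and IL-1 signal transduction had 2 higher genes by library totals and in both limma fits, 5 with the replicate block, and 2 to 11 higher and 11 to 17 lower without 1 library. JAK-STAT signal transduction had 1 higher gene in both limma fits, and 2 to 4 higher and 6 to 9 lower without 1 library.

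Correlations of deviations from the group mean were 0.0861, -0.0731 and -0.134 between libraries of equal replicate number (1, 2 and 3). Between libraries of unequal number they spanned -0.132 to 0.192. With 3 libraries a group, these values cannot decide whether libraries were paired. With the number as a block, 7 members were higher and 9 lower, and 1633 and 1849 genes over all.

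Signs of 15 named genes that had not passed changed under some alternative, and of 0 called genes. By library totals, limma on FPKM + 1 and limma on FPKM + 0.1, Il17ra was -0.097, -0.089 and -0.10, Il1r2 -0.040, -0.012 and -0.0093, and Il13ra1 -0.012, -0.011 and -0.012. Tnfsf13b was -0.012 on FPKM + 0.1, and Tnfrsf1a 0.0018 with RLE and 0.0019 in DESeq2. Without 1 library the log2 fold changes spanned -0.21 to 0.0028 for Il1a, -0.071 to 0.43 for Il15, -0.0063 to 0.35 for Il1r2, -0.24 to 0.18 for Il6ra, -0.15 to 0.086 for Il6st, -0.48 to 0.21 for Il7, -0.36 to 0.12 for Il7r, -0.45 to 0.073 for Tnfsf10, -0.081 to 0.38 for Tnfsf13b, -0.80 to 0.015 for Tnfsf14, -0.064 to 0.059 for Tnfrsf1a, -0.11 to 0.014 for Tnfrsf1b and -0.20 to 0.21 for Tnfrsf12a.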
